A study of Mus musculus with 8 samples.

Results

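The nuclear pore and mRNA export factors described here are 43 genes: the subunits of the nuclear pore complex, the receptors and adaptors that carry messenger RNA through it, and the helicases and cofactors that release the RNA in the cytoplasm. They were chosen by gene name, with older names accepted. All 43 had at least 1 probe on the array, and all 43 passed the filter on dim probes, among 17941 genes that passed of 31693 named on the array. The RNA came from bone marrow derived macrophages of mice that all carried ERT2 Cre, a Cre recombinase that acts once tamoxifen is given, on a C57BL/6 x B6:129 Ola background. Control cells carried ERT2 Cre alone, and flox cells carried ERT2 Cre with Thoc5 (flox/flox), so that tamoxifen can delete Thoc5, a subunit of the THO complex. On each of 8 dual-colour arrays, RNA of cells kept 3 days under CSF-1, with or without tamoxifen, was read beside RNA taken at day 0 from cells of that genotype in the same experiment, which had no tamoxifen.

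That gave 4 groups of 2 arrays: control without tamoxifen, control with tamoxifen, flox without tamoxifen and flox with tamoxifen. The 2 arrays of a group came from 2 biological experiments, the second with the dyes swapped, and each day 0 sample served as the reference of 2 arrays. The labels give no age or number of mice, no tamoxifen dose and no promoter for the Cre. Only cytoplasmic RNA was measured, so a change in how much RNA the cells hold and a change in how much of it reaches the cytoplasm cannot be told apart. Fewer cells of a type and less RNA per cell cannot be told apart either. The 2-array groups limit the precision, and the p-values measure the spread between experiments that is left once a shift common to all groups is taken out.

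Messenger RNA leaves the nucleus bound to proteins. The TREX complex, which joins the THO complex to the helicase Ddx39b (UAP56) and the adaptor Alyref, loads the export receptor made of Nxf1 and Nxt1 onto the RNA. The receptor then crosses the pore by binding the phenylalanine-glycine repeats of the channel nucleoporins, and at the cytoplasmic filaments the helicase Ddx19 and its cofactor Gle1 strip the proteins from the RNA. The pore itself is a ring of repeated subunits: the Nup107 complex outside, an inner ring, a membrane ring, a central channel, a nuclear basket and cytoplasmic filaments. Xpo1 exports proteins and some RNAs with the GTPase Ran, and dividing cells build new pores as they grow.

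Thoc5, the targeted gene, checks the labels. Its log2 ratio of day 3 over day 0 was -3.04 and -3.02 in flox cells with tamoxifen (experiments 1 and 2), -0.74 and -0.77 in flox cells without it, and between -0.40 and -0.15 on the 4 control arrays. Tamoxifen lowered it by 4.83-fold in flox cells (log2 change -2.27 ± 0.10 SE, limma adjusted p = 0.000709). In each channel of each array, 51.2% to 57.9% of the probes stood well above background, and 0 spots were saturated. The macrophage list, with Csf1r, Adgre1 and Cd68 among its genes, had all 10 of its markers well above background in both channels of every array. Its mean log2 ratio was 0.38 to 0.87 on the arrays, and that of 10 genes of dividing cells was -2.01 to -1.07. Of the 10 macrophage genes 6, 6, 5 and 7 rose and 0, 0, 1 and 3 fell in the 4 groups: Csf1r fell in both flox groups, and Itgam and Fcgr1 in flox cells with tamoxifen. Of 9 measured neutrophil genes, 8 fell in each control group and 9 in each flox group, with medians from -3.75 to -3.47.

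Most of the 43 genes were lower at day 3 than at day 0 in every group. At a limma adjusted p under 0.05 over all genes, 29 fell and 2 rose in control cells without tamoxifen, where 57.4% of all genes were called, 34.1% lower and 23.3% higher. In control cells with tamoxifen, 31 fell and 2 rose, against 57.7% of all genes called, 33.8% lower and 23.9% higher. In flox cells without tamoxifen, 26 fell and 7 rose, against 57.3% called, 33.4% lower and 23.9% higher; with median centring in place of loess, 20 fell and 2 rose there. In flox cells with tamoxifen, 29 fell and 5 rose, against 58.9% called, 33.4% lower and 25.5% higher. The members' median log2 ratio was -0.46, -0.41, -0.29 and -0.44 in these groups in turn, beside -0.06, -0.06, -0.05 and -0.05 for all genes tested. Groups of 1 genotype share their day 0 RNA, so the 4 counts are not independent.

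The pattern was largely shared between the groups. The 23 members called lower in all 4 groups set beside 20.8% of all genes called so. Sec13 and Rae1 were called higher in all 4 groups, beside 13.3% of all genes. Nup98, Nup214 and Nup50 were called in none, and Nup43 was called lower in both control groups and higher in flox cells without tamoxifen. By array, 28 members were below 0 on all 8 arrays, 2 were above 0 on all 8, and 13 lay on both sides. Nup214, which binds Ddx19 at the cytoplasmic filaments, was near background: its probe was well above it on only 1 of 2 arrays of flox cells with tamoxifen.

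**Figure D1:**
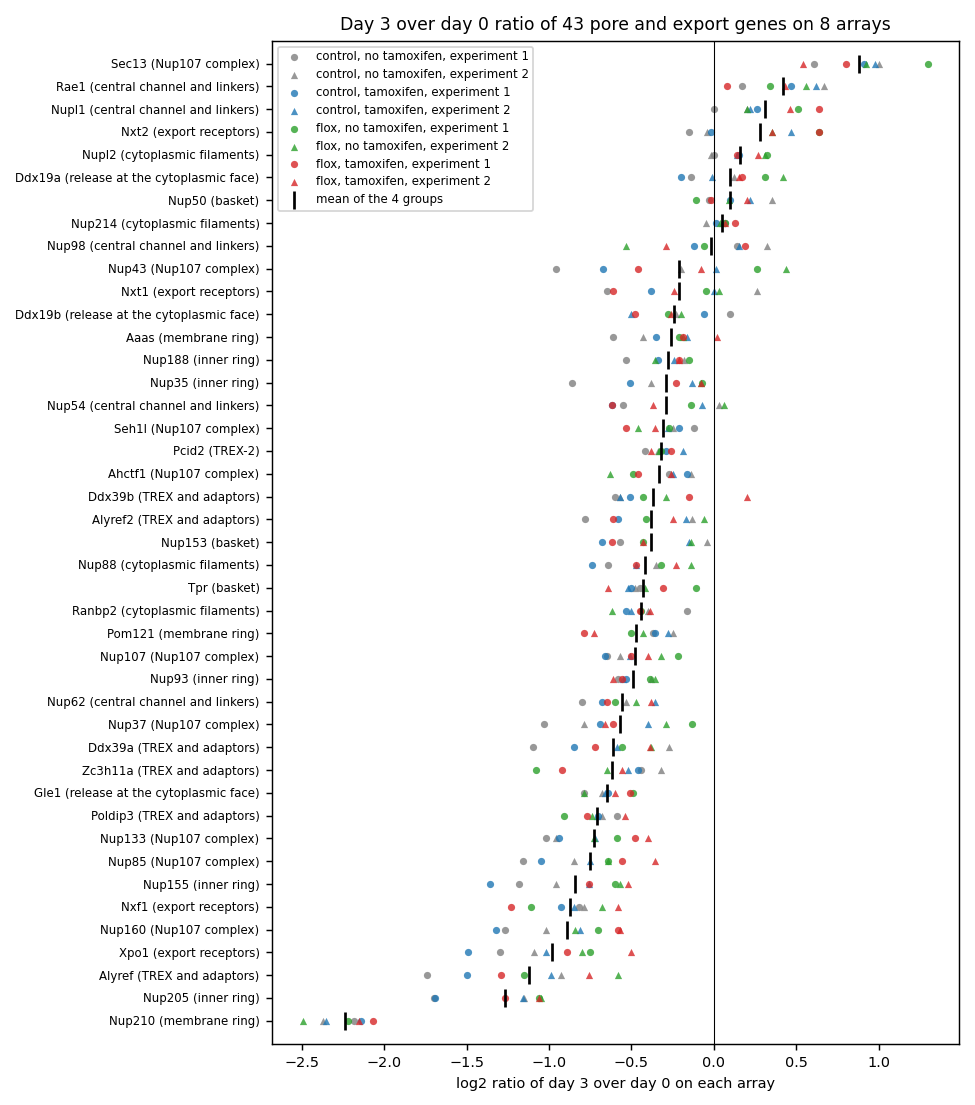
The log2 ratio of day 3 over day 0 (x axis) of each of the 43 genes (y axis, with its role) on each of the 8 arrays; colours mark groups, circles experiment 1, triangles experiment 2, and black bars the mean of the 4 groups. Nup210 lies apart at a mean of -2.24, Sec13 is highest at 0.88, and 28 genes have all 8 points below 0.

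The fall was spread over the pore's layers and over TREX. At their brightest probes, all 6 TREX genes and adaptors (Alyref, Alyref2, Ddx39a, Ddx39b, Poldip3 and Zc3h11a) fell in 3 groups. In flox cells with tamoxifen 5 of 6 fell. The further Zc3h11a probe had 0.08, -0.17, -0.29 and -0.07 in the order above. It was called only in flox cells without tamoxifen (limma adjusted p = 0.0172). At 1 further probe Ddx39b rose in all 4 groups, as given below. All 5 inner ring genes (Nup205, Nup188, Nup155, Nup93 and Nup35) fell in both control groups, and 3 of 5 in each flox group. Of the 9 Nup107 complex genes, 6, 7, 6 and 7 fell in the 4 groups in the order above. The 3 membrane ring genes fell in both control groups, and 2 of them in each flox group. Among the 5 channel genes and their linkers, by contrast, only 1 or 2 fell and 1 or 2 rose in a group. In the cytoplasmic filaments, Ranbp2 and Nup88 fell in all 4 groups, and Nupl2 was called higher in both flox groups (0.31 and 0.20). The Nupl2 call in flox cells with tamoxifen was lost under 12 of 18 alternatives. At both further Nupl2 probes the gene rose in all 4 groups, control cells included, by 1.17 to 1.70 at one and 0.45 to 0.54 at the other (limma adjusted p from 4.7e-05 to 0.00313). Pcid2, the only TREX-2 member here, fell in all 4 groups, by log2 ratios of -0.38 to -0.24.

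Nup210, an integral membrane nucleoporin of the pore's membrane ring, had the lowest mean ratio of the 43 genes, -2.24. Its log2 ratio in experiments 1 and 2 was -2.18 and -2.37 in control cells without tamoxifen, then -2.14 and -2.35 with it. In flox cells it was -2.22 and -2.49 without tamoxifen, and -2.07 and -2.15 with it. All 8 arrays lay within 0.5 of each other and every array of the other members was above all of them. As a channel intensity, the day 0 level was 3980 to 5850 and the day 3 level 779 to 1320, so the 2 days did not overlap. The fitted fall was 4.83-fold, 4.74-fold, 5.12-fold and 4.31-fold in the 4 groups, with log2 standard errors of 0.07 (limma adjusted p from 8.34e-06 to 1.4e-05).

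Nup205, a large scaffold of the inner ring, was second lowest with a mean of -1.27. In control cells its log2 ratio was -1.70 and -1.15 without tamoxifen and -1.69 and -1.16 with it. In flox cells it was -1.06 and -1.05 without tamoxifen and -1.27 and -1.06 with it. The 2 control arrays of experiment 1 were lowest, and the other 6 lay close together. The fitted log2 ratios were -1.43, -1.42, -1.06 and -1.16, each ± 0.11 SE (limma adjusted p from 0.000151 to 0.000422). Nup155, another inner ring scaffold, fell by log2 ratios of -1.07, -1.06, -0.58 and -0.64 in the 4 groups.

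Alyref, the TREX adaptor that hands the RNA to Nxf1, came next, with a mean of -1.12. Its log2 ratio in experiments 1 and 2 was -1.74 and -0.93 in control cells without tamoxifen, then -1.50 and -0.99 with it. In flox cells it was -1.15 and -0.58 without tamoxifen, and -1.29 and -0.76 with it. Experiment 1 was lower than experiment 2 in every group, by more than the groups differed. The fitted log2 ratios were -1.34, -1.24, -0.86 and -1.02, each ± 0.08 SE (limma adjusted p from 7.17e-05 to 0.000296).

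Among the export receptors, Xpo1 and Nxf1 fell in all 4 groups. Xpo1, the exportin for proteins with leucine-rich export signals, had log2 ratios of -1.19, -1.25, -0.78 and -0.69. Nxf1, the main mRNA export receptor, had -0.80, -0.89, -0.89 and -0.90. In the Nup107 complex the subunits Nup160, Nup133, Nup85 and Nup107 fell in all 4 groups, with Nup160 from -1.14 to -0.57. Gle1, the activator of the Ddx19 helicase, fell by -0.74 to -0.56 at its brightest probe. At its further kept probe the ratios were -0.14 to 0.05, with no call in any group (limma adjusted p from 0.364 to 0.993). Nup62, the channel nucleoporin with phenylalanine-glycine repeats, fell by -0.67 to -0.52. In the basket, Tpr (-0.51 to -0.26) and Nup153 (-0.53 to -0.29) fell in all groups, while Nup50 had ratios of -0.01 to 0.16 and was called in none. Aaas, Nup35 and Nup188 fell in the control groups and did not pass in the flox groups, and Ahctf1 (ELYS), which seeds pores on chromatin, fell in the flox groups and did not pass in the control groups. For these 4 the flox minus control difference was not called.

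Sec13 had the highest mean ratio, 0.88. It belongs to the Nup107 complex and also to the COPII coat of vesicles that leave the endoplasmic reticulum. Its log2 ratio in experiments 1 and 2 was 0.61 and 1.00 in control cells without tamoxifen, then 0.91 and 0.98 with it. In flox cells it was 1.30 and 0.92 without tamoxifen, and 0.80 and 0.54 with it. Every array was above 0, while the other 8 genes of the complex had means from -0.89 to -0.21. The fitted rise was 1.75-fold, 1.92-fold, 2.16-fold and 1.59-fold (log2 standard error 0.14, limma adjusted p from 0.000764 to 0.00553).

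Rae1, an mRNA export factor that binds Nup98, was called higher in all groups, with a mean of 0.42. Its log2 ratio was 0.17 and 0.67 in control cells without tamoxifen, 0.47 and 0.62 with it, 0.34 and 0.56 in flox cells without tamoxifen, and 0.08 and 0.43 with it. Experiment 2 was higher than experiment 1 in every group. The rise in flox cells with tamoxifen (0.26) was lost under 9 of 18 alternatives, with limma adjusted p from 0.0231 to 0.413. Nup98 itself had fitted ratios of -0.29 to 0.23 and was called in none.

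Nupl1, known as Nup58 and a partner of Nup62 and Nup54 in the channel, came next with a mean of 0.31. Its log2 ratio was 0.00 and 0.20 in control cells without tamoxifen, 0.26 and 0.22 with it, 0.51 and 0.20 in flox cells without tamoxifen, and 0.64 and 0.46 with it. It rose in both flox groups (0.35 ± 0.10 and 0.55 ± 0.10 SE, limma adjusted p = 0.0225 and 0.00366). In the control groups it did not pass (0.10 and 0.24, limma adjusted p = 0.429 and 0.0805), and the flox minus control difference was not called with or without tamoxifen.

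The start regions of these 6 genes are shown because they lie at both ends of the members' range; each is the 250 bases before the RefSeq start on GRCm38.p6. Capitals mark matches, on either strand, to any of 6 motifs: CCAAT (the NF-Y box), CACGTG (the E-box bound by Myc and its partners), CCGGAAG (an Ets core), GGGCGG (the GC box), CGCATGCG (the centre of the NRF1 site) and TTTCCCGC (an E2F site). The E2F site and the reverse of the GC box can share letters.
Nup210: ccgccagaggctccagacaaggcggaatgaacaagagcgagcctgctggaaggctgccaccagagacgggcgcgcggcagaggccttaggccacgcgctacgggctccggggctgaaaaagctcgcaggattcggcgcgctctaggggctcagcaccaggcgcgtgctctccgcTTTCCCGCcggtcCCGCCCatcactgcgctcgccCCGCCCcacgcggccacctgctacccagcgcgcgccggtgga
Nup205: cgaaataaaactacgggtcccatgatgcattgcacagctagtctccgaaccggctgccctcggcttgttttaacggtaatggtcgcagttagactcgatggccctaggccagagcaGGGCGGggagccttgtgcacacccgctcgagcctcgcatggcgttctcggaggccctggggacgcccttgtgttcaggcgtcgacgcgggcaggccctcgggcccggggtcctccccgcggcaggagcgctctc
Alyref: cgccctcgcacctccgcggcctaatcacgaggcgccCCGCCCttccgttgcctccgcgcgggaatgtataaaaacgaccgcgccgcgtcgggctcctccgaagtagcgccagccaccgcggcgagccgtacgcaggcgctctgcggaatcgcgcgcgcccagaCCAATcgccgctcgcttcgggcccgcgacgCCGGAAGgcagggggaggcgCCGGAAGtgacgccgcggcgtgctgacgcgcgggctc
Sec13: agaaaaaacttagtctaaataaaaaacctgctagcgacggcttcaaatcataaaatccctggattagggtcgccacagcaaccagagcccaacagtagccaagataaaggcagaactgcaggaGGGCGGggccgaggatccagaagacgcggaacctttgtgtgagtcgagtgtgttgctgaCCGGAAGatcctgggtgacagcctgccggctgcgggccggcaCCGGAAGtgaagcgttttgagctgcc
Rae1: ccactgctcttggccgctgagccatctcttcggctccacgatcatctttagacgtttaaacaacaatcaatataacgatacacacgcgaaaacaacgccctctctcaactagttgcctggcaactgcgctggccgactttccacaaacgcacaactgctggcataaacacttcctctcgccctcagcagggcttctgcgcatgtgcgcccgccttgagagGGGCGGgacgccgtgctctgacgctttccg
Nupl1: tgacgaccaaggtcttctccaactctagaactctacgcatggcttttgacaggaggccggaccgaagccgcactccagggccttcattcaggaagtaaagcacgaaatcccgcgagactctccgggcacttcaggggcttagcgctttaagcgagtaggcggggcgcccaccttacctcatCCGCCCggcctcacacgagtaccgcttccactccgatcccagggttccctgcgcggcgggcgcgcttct
They lie at chr6:91116827-91117076 (minus strand), chr6:35177366-35177615 (plus), chr11:120598366-120598615 (minus), chr6:113740682-113740931 (minus), chr2:172999867-173000116 (plus) and chr14:60251480-60251729 (minus). The GC box stands at least 1 time in each of the 6, whether the gene fell or rose. Both Alyref, which fell, and Sec13, which rose, hold 2 matches to the Ets core.

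Of the 43 members, 37 matched a RefSeq promoter entry; Ddx39a, Nup35, Seh1l, Nup85, Poldip3 and Nup43 did not. The Ets core CCGGAAG was found in 9 of 37 (24.3%), beside 13.1% of 11011 promoters of measured genes and 7.05% of all 27025. The NRF1 centre CGCATGCG was found in 4 (10.8%), beside 3.0% and 1.58%, and CACGTG in 5 (13.5%), beside 8.15% and 6.05%. The GC box was found in 22 (59.5%, beside 55.4% and 32.9%), CCAAT in 15 (40.5%, beside 36.3% and 34.5%) and TTTCCCGC in 1 (2.70%, beside 1.68% and 0.929%). The median GC content was 61.6% in the members' promoters, 58.8% in those of measured genes and 52.0% in all. These matches describe the letters in these windows.

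Close relatives did not all move alike. Alyref2, a retrogene paralog of Alyref, fell in all groups, but its log2 ratio was 0.50 to 0.96 above that of Alyref on all 8 arrays. On the arrays of experiments 1 and 2, Alyref2 had -0.78 and -0.13 in control cells without tamoxifen, -0.58 and -0.17 with it, -0.41 and -0.06 in flox cells without tamoxifen, and -0.61 and -0.25 with it. The pair therefore differed in size and not in direction. Sequences of such pairs are close, and whether their probes bind the other gene's RNA was not tested.

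The UAP56 paralogs Ddx39a and Ddx39b, the ATP-driven helicases of TREX, differed less. Ddx39a had log2 ratios of -1.10 and -0.27 in control cells without tamoxifen, -0.85 and -0.59 with it, -0.56 and -0.38 in flox cells without tamoxifen, and -0.72 and -0.39 with it. Its ratio minus that of Ddx39b ranged from -0.60 to 0.30, with 7 of 8 arrays below 0.

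Ddx19a and Ddx19b, the helicases at the cytoplasmic face, had opposite signs in flox cells. Ddx19a had 0.31 and 0.42 in flox cells without tamoxifen, 0.17 and 0.15 with it, -0.14 and 0.12 in control cells without tamoxifen, then -0.20 and -0.01 with it. Ddx19b had -0.28 and -0.20 in flox cells without tamoxifen, -0.48 and -0.26 with it, 0.10 and -0.23 in control cells without tamoxifen, then -0.06 and -0.50 with it. Ddx19a was called higher in flox cells without tamoxifen and in no other group, and Ddx19b lower in flox cells with it and in no other. Neither differed between the genotypes at the threshold.

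Nxt1 and Nxt2, the small partners of Nxf1, also parted. Nxt1 had -0.65 and 0.26 in control cells without tamoxifen, -0.38 and 0.00 with it, -0.05 and 0.03 in flox cells without tamoxifen, and -0.61 and -0.24 with it. Nxt2 had -0.15 and -0.04 in control cells without tamoxifen, -0.02 and 0.47 with it, 0.64 and 0.35 in flox cells without tamoxifen, and 0.64 and 0.35 with it. Nxt1 was called lower in flox cells with tamoxifen (-0.43), and Nxt2 was called higher in both flox groups (0.49 and 0.49). Their 2 arrays per group differed by up to 0.90 for Nxt1, the largest gap of any member.

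Where a gene had several probes, the probes did not always show the same change. Of the 43 members, 30 had 1 probe and 13 had several, and 11 had 1 or 2 kept probes beyond the brightest, which stands for the gene here. Of these 13 further probes, 2 had the sign of the brightest in all 4 groups. All 4 that lay toward the 3′ end were higher than the brightest, by a median of 0.30, and 8 of 9 toward the 5′ end were, by 0.66. Nup54 (0.42 against -0.29) and Seh1l (0.35 against -0.31) had the opposite mean sign at a probe 2011 and 2950 bases upstream. So did Tpr (0.59 against -0.43) at a probe 25959 bases upstream, but that probe was dim, with intensities of 94.2 to 325, a standard error of 0.36 and no call in any group (limma adjusted p from 0.0503 to 0.562). Its 2 arrays of flox cells without tamoxifen had 1.18 and -0.66.

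Ddx39b differed most between its probes. The brightest lies at chr17:35390546-35390605 (mm9, the build of the array design) and had a mean ratio of -0.37. A probe at chr17:35381433-35381492, which is 9113 bases upstream, had 0.81, 0.94, 1.10 and 1.31 in the 4 groups, with each rise called (limma adjusted p from 0.000557 to 0.0046). A dim probe at chr17:35379420-35379479 had a mean of -0.28. Whether the probes lie in exons, introns or untranslated regions was not analysed here.

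**Figure D2:**
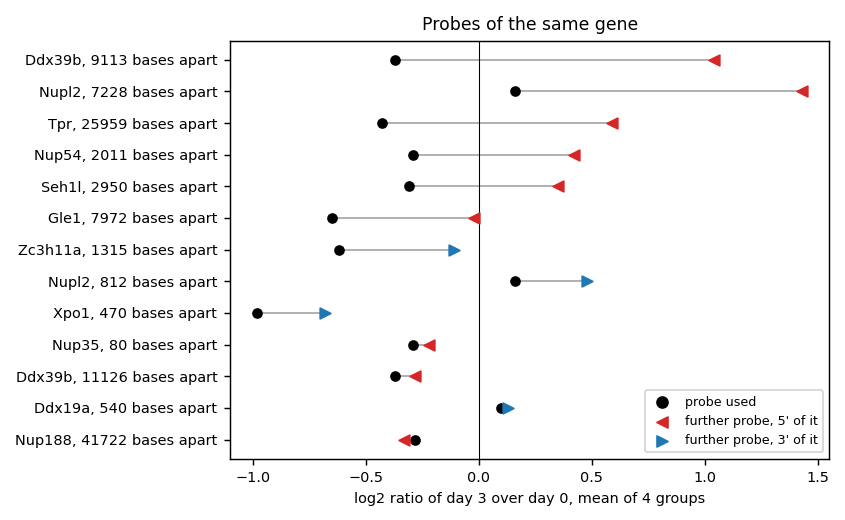
Mean log2 ratio of day 3 over day 0 (x axis) at the probe used for a gene (black) and at each of 13 further kept probes of 11 members (red to its 5′ side, blue to its 3′ side), with the distance in bases on the y axis. Of the 13 further probes 12 lie to the right of the probe used. Those of Tpr, Nup54 and Seh1l, and the Ddx39b probe 9113 bases away, lie across 0.

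The members' further probes were mostly higher on either side, and all were dimmer because the brightest was chosen. Position and brightness cannot be told apart among them. Over the whole array, the higher ratios lay toward the 5′ side. In 2052 genes with kept probes at least 1000 bases apart on the genome, the 5′ probe exceeded the 3′ probe by a median log2 ratio of 0.25 to 0.54 on the 8 arrays, and in 66.9% to 80.8% of the genes. In 1195 genes with probes under 1000 bases apart the median was 0.06 to 0.12. So the position of a probe moved with its ratio of day 3 over day 0. The brightness of these 5′ and 3′ probes was not compared. The part of position in the fall of members with a single probe was not tested. With the 5′-most kept probe in place of the brightest for every gene, 26, 27, 22 and 27 members fell and 4, 4, 9 and 6 rose in the 4 groups, and with the 3′-most 28, 30, 26 and 28 fell. Only the 11 members with a further kept probe could change probe in this way. The share of all genes called in these fits is not given here, so the counts do not set the members apart from other genes.

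Genes of the wider transport pathway were unevenly affected. Of 49 measured genes of a list that holds THO subunits, other TREX and TREX-2 genes, exon junction, cap binding and adaptor proteins, the Ran cycle and other importins and exportins, 30, 30, 26 and 29 fell and 6, 5, 7 and 5 rose, beside 33.4% to 34.1% of all genes called lower. The Ran cycle genes Ran, Rcc1, Rangap1, Ranbp1 and Nutf2, which drive receptors across the pore, all fell in 3 groups, and 4 of 5 fell in flox cells without tamoxifen. Of 19 importins and exportins, 12 to 14 fell in a group. Of 7 exon junction and cap binding genes, 3, 3, 2 and 4 fell, and of 6 THO subunits, Thoc5 included, 4, 2, 2 and 3. Among 8 other TREX and TREX-2 genes, 1, 2, 2 and 2 fell, and their medians were -0.06, -0.12, 0.01 and -0.13.

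Genes of dividing cells moved with this pattern. All 10 of that list (Mki67, Top2a, Cdk1, Mcm2 and others) fell in every group, with medians of -1.79, -1.40, -1.08 and -1.31. The sum of their channel intensities was 184000 to 272000 at day 0 and 54000 to 116000 at day 3, and none of the 10 was lost into background on any array. Their part in the fall of the pore genes was not tested.

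Tamoxifen changed none of the 43 genes at the threshold in either genotype. In control cells 0 of 43 were called by limma, where 0% of all genes were, with log2 effects of -0.24 to 0.36 and 2 at an unadjusted p under 0.05 (5.53% of all genes were). In flox cells 0 of 43 were called, where 9.01% of all genes were (4.15% lower and 4.87% higher), with effects of -0.62 to 0.39, 6 at an unadjusted p under 0.05 (24.9% of all genes were) and a lowest adjusted p of 0.0624. A missed threshold does not show that a gene was unaltered: the 95% intervals in flox cells reached from -1 to 0.76, and 28 of 43 lay within 0.5 of 0. By experiment, 18 members had a tamoxifen effect below 0 in both experiments of flox cells and 13 above 0 in both. In control cells it was 12 and 13. The share of all genes with 1 sign in both experiments is not given here, so the counts do not set the members apart.

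**Figure D3:**
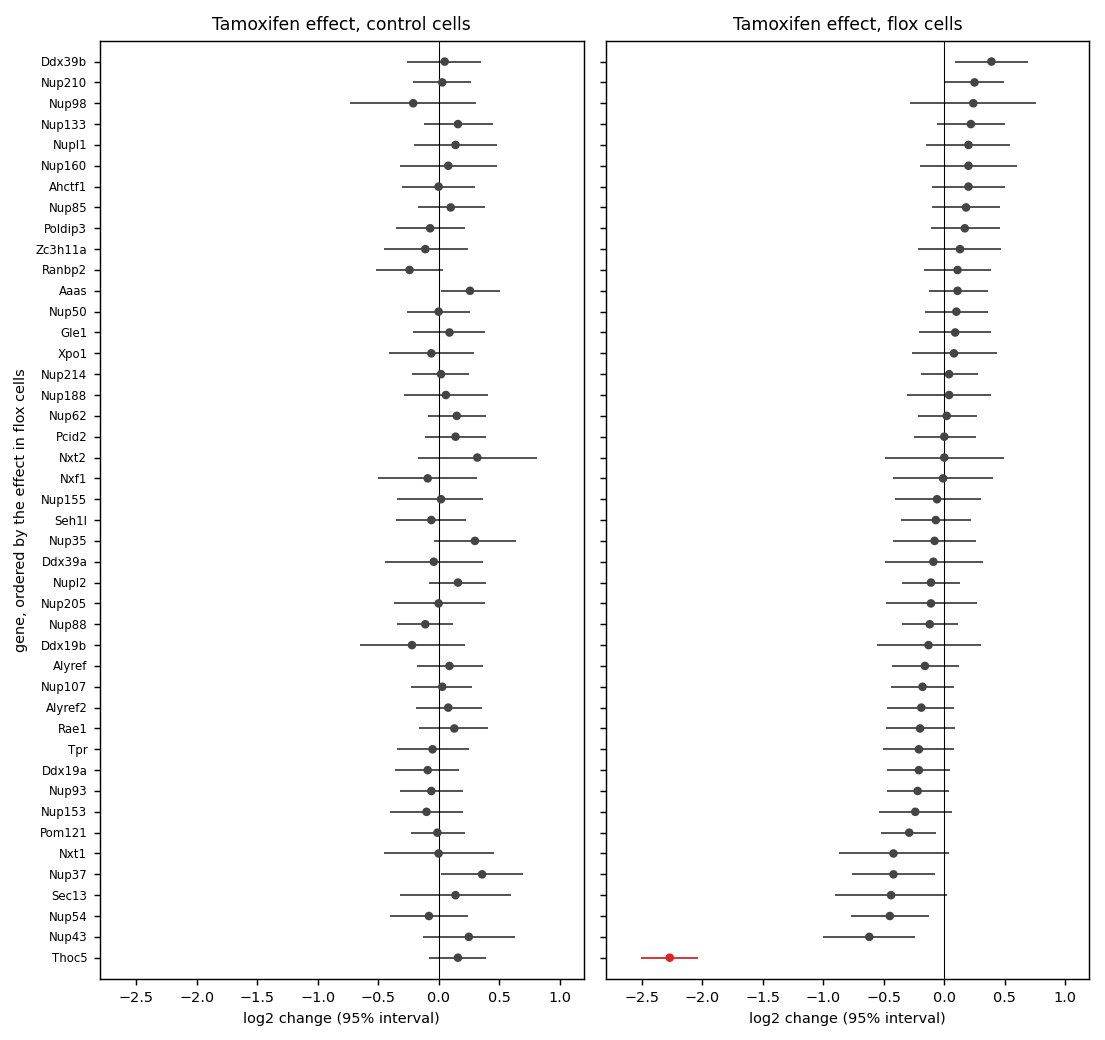
Log2 effect of tamoxifen at day 3 (points) with its 95% interval (lines) in control cells (left) and flox cells (right), for the 43 genes and Thoc5; red marks a limma adjusted p under 0.05. Only Thoc5 is red, at -2.27 in flox cells, and the members lie between -0.62 and 0.39 there.

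Those with the smallest p in flox cells were Nup43 (-0.62 ± 0.16 SE, 95% interval -1 to -0.24, limma adjusted p = 0.0624), Nup54 (-0.45 ± 0.13, -0.77 to -0.13, adjusted p = 0.0883) and Pom121 (-0.29 ± 0.09, -0.52 to -0.07, adjusted p = 0.109). Nup54, a channel nucleoporin, had -0.14 and 0.06 in flox cells without tamoxifen and -0.62 and -0.37 with it, and in control cells -0.55 and 0.03 without and -0.62 and -0.07 with it. In control cells the smallest were Aaas (0.26, adjusted p = 0.859), Nup37 (0.36, adjusted p = 0.859) and Nup35 (0.30, adjusted p = 0.948).

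On the day 3 channel alone, limma called 5 members in flox cells: Nup37, Nup43, Sec13 and Nup54 lower and Ddx39b higher. With day 0 samples fitted as a random block it called 3, Nup37, Nup43 and Nup54, all lower. Tamoxifen calls among the members therefore depended on the fit. Which feature of the fits made the difference was not tested. The share of all genes called in these fits is not given here, so the counts do not set the members apart from other genes. In the reported fit, the tamoxifen effect in flox cells was called for some genes of the pathway list. Kpnb1 (-0.61), Kpna2 (-1.06) and Xpot (-0.50), which carry proteins or tRNA, were lower, besides Thoc5 and Magohb (-0.63), and Ipo5 was higher (0.60).

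The difference between the tamoxifen effects of flox and control cells was called for 0 of 43 members, where 1.14% of all genes were called, with 2 members at an unadjusted p under 0.05 (15.4% of all genes were). These were Nup37 (-0.79 ± 0.20 SE, 95% interval -1.27 to -0.31, limma adjusted p = 0.129) and Nup43 (-0.87 ± 0.22, -1.41 to -0.33, adjusted p = 0.134), followed by Pom121 (-0.29 ± 0.13, adjusted p = 0.377). On the day 3 channel alone, Nup37 and Nup43 passed (-0.80 and -0.89, limma adjusted p = 0.0384 and 0.0451). In the dividing-cell list, the difference had a median of -0.60 and 2 of 10 genes were called, both lower. Its part was not tested.

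Nup43 was the only member called between the genotypes without tamoxifen. It is a propeller-shaped subunit that the animal Nup107 complex carries at its rim, next to Nup85 and Seh1. Its log2 ratio was -0.96 and -0.20 in control cells without tamoxifen, -0.67 and 0.01 with it, 0.26 and 0.44 in flox cells without tamoxifen, and -0.46 and -0.08 with it. Only flox cells without tamoxifen were above 0 on both arrays, and they did not overlap any other group. The flox minus control difference without tamoxifen was 0.93 ± 0.16 SE, a 1.91-fold higher ratio (95% interval 0.55 to 1.31, limma adjusted p = 0.0402), where 2.89% of all genes were called, 1.45% lower and 1.44% higher. With tamoxifen the groups overlapped.

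The difference lay in the day 3 channel. There Nup43 had an intensity of 5050 and 4690 in flox cells without tamoxifen, against 2300 and 2730 in control cells, and 2850 to 3290 on the 4 arrays with tamoxifen. On the day 3 channel alone the genotypes differed by 0.96 ± 0.12 without tamoxifen (limma adjusted p = 0.00853), and on the day 0 channel by 0.03 ± 0.13. The call on the ratios was lost when any 1 of the 8 arrays was left out, without the experiment term and with Agilent's own ratios, with adjusted p-values from 0.00269 to 0.274 over the alternatives.

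Nup37, another animal subunit of that complex, which binds Nup160, had its highest arrays in the same group. Its log2 ratio was -1.03 and -0.79 in control cells without tamoxifen, -0.69 and -0.40 with it, -0.13 and -0.29 in flox cells without tamoxifen, and -0.61 and -0.66 with it. The 2 arrays of flox cells without tamoxifen were above all others. The flox minus control difference without tamoxifen was 0.69 ± 0.14 SE (95% interval 0.35 to 1.03, limma adjusted p = 0.057).

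More widely, 32 of 43 members lay above 0 in this comparison, beside 49.9% of all genes, with a median of 0.22 beside 0.00. At an unadjusted p under 0.05 there were 17 of 43, beside 23.1% of all genes. The members' median ratio was nearer 0 in flox cells (-0.29) than in control cells (-0.46) without tamoxifen. In the same comparison 6 of 10 dividing-cell genes were called higher in flox cells, with a median of 0.75. The part of these in the members' difference was not tested.

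With tamoxifen, 2 members differed between the genotypes, where 11.3% of all genes did (5.83% lower and 5.43% higher in flox cells). Pom121, a membrane ring protein that anchors the pore early in its assembly, was lower in flox cells. Its log2 ratio was -0.79 and -0.73 in flox cells with tamoxifen, -0.50 and -0.43 without it, -0.36 and -0.28 in control cells with tamoxifen, and -0.37 and -0.25 without it. The flox arrays with tamoxifen were below all others. The difference was -0.44 ± 0.09 SE (1.36-fold, 95% interval -0.67 to -0.22, limma adjusted p = 0.0341).

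Ddx39b was higher in flox cells with tamoxifen than in control cells with it. Its log2 ratio was -0.15 and 0.20 in flox cells with tamoxifen, -0.43 and -0.29 without it, -0.51 and -0.57 in control cells with tamoxifen, and -0.60 and -0.57 without it. The flox arrays with tamoxifen were above all others, and the array of experiment 2 was the only one above 0. The difference was 0.57 ± 0.13 SE (1.49-fold, 95% interval 0.27 to 0.87, limma adjusted p = 0.0371). At the probe 9113 bases upstream the same difference was 0.37 ± 0.22 (limma adjusted p = 0.309), and at the dim probe 0.02 ± 0.13.

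Both calls depended on the settings. Neither held without the experiment term, with median centring or with Agilent's own ratios. The Pom121 call was also lost on the day 3 channel alone (limma adjusted p = 0.0664), and that of Ddx39b with the mean of all probes (0.32) and with the 5′-most probe (0.02). Limma called 0 to 3 members when 1 array was left out. Of 44 measured markers over all cell type lists, 11 were called lower and 3 higher in flox cells in this comparison. The 3 higher were among the 10 dividing-cell genes (median -0.02). Of the lower, 3 were among 10 macrophage, 3 among 9 neutrophil, 3 among 4 B-lineage and 2 among 4 megakaryocyte genes. Only 1 or 2 of the 4 B-lineage genes were well above background at day 3 on the arrays with tamoxifen, which limits those calls. The mean log2 ratio of the megakaryocyte list was -2.35 and -2.50 in flox and -1.58 and -1.67 in control cells with tamoxifen. The 4 stromal genes stood apart on the experiment 2 array of flox cells with tamoxifen, with a mean of 0.45 against -1.41 to -0.37 on the other 7 arrays. Without that array Pom121 had -0.43 and Ddx39b 0.42. Without the experiment 1 array of the same group Pom121 had -0.46 and Ddx39b 0.73. Both calls were also lost without certain other arrays. With an array left out its group held 1 array, so the loss of a call cannot show what caused it. The part of these lists in the members' differences was not tested. Among pathway genes, Kpnb1 (-0.55) and Xpo6 (-0.65) were lower in flox cells and Srsf1, an adaptor SR protein, was higher (0.58), besides Thoc5 (-2.85).

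**Figure D4:**
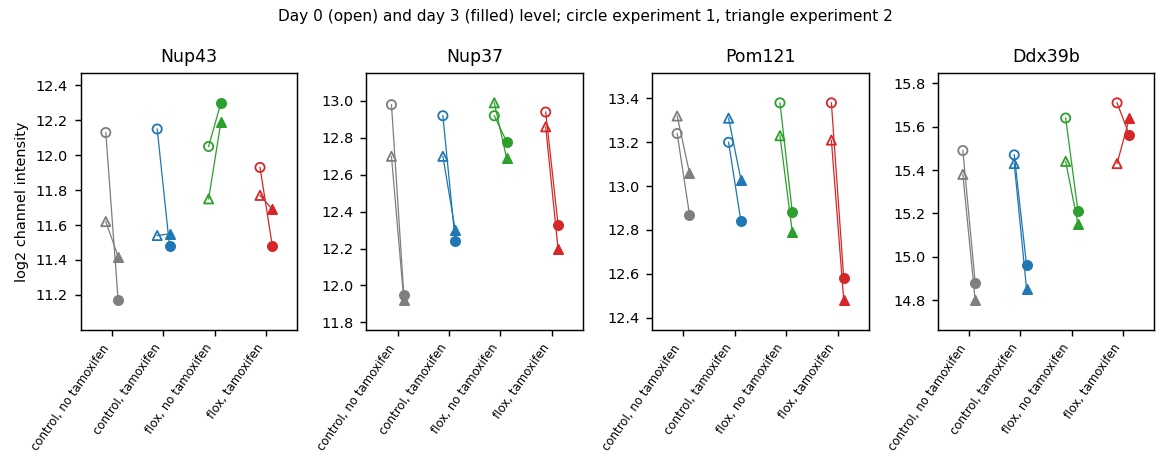
Log2 channel intensity (y axis) of Nup43, Nup37, Pom121 and Ddx39b at day 0 (open) and day 3 (filled), joined within an array, by group (x axis); circles mark experiment 1 and triangles experiment 2. The day 3 points of Nup43 and Nup37 are highest in flox cells without tamoxifen, those of Pom121 are lowest and those of Ddx39b highest in flox cells with tamoxifen; y axes differ between genes.

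The 2 experiments differed for the members in 3 of the 4 groups. The median log2 ratio was -0.59 in experiment 1 and -0.34 in experiment 2 for control cells without tamoxifen, and 35 of 43 members were lower in experiment 1. With tamoxifen, 31 members were lower in experiment 1 both in control cells (medians -0.53 and -0.36) and in flox cells (-0.50 and -0.37). In flox cells without tamoxifen, 22 were lower and the medians were -0.32 and -0.36. Over all genes the median was -0.07 to -0.05 on each array, where loess holds it near 0. The share of all genes lower in experiment 1 is not given here, so the shift may not be particular to the members. Each experiment was run with 1 dye orientation and 1 slide, so biology, dye and slide cannot be told apart here. The same day 0 RNA read on 2 arrays differed by a median of 0.03 to 0.09 over the members (at most 0.28), against 0.14 to 0.25 between the day 3 RNAs of the same pairs of arrays.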

How the data were processed

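Cytoplasmic RNA of 4 groups was hybridised to 8 Agilent dual-colour arrays, 2 per group. The authors ran Agilent Feature Extraction (version 10.7.3.1, per the submitters' processing notes), with dye normalization by LOWESS per the file headers. Per the file headers, deposited intensity values give spot and local background brightness before subtraction. Deposited log10 ratios of processed signal, used as an alternative, match the deposited value table within 5e-10 after the swapped arrays are turned. Spot flags (0 or 1) came with them.

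Mean intensities were background-corrected by normexp (offset 50), normalized by loess within arrays, and turned to log2 ratios of day 3 over day 0 with limma 3.58.1 in R 4.3.3. Of 39429 probes, 22398 were kept, those marked well above background on the 2 arrays of some group in either channel, and the brightest probe stood for each gene. Symbols were updated through a RefSeq table (GRCm38.p6) for 26412 probes by accession. The limma fit had a mean per group plus an experiment term (also dye direction and slide), with 3 residual and 3.46 prior degrees of freedom. Genes were called at a two-sided Benjamini-Hochberg adjusted p under 0.05 over all 17941 genes, of which 83 had a missing value. It was tested on simulated data. The labels pair same-numbered arrays by experiment. Their deviations from group means correlated at 0.31 to 0.73, highest within a genotype (0.73 and 0.63), where day 0 RNA is shared. Dye direction changed with the experiment in every group, so these correlations cannot show the pairing by themselves. Channel levels were scaled with Aquantile.

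The members and lists were chosen with earlier results of these data known. Given in full are members called between treatments or genotypes, the 3 highest and 3 lowest by mean ratio, and 4 paralog pairs; where 0 were called, the 3 with the smallest p are given as values.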

Additional observations from a re-analysis of the deposited data

Results flagged for a closer look

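A test of the difference between genotypes at the same treatment picked out 3 results. Without tamoxifen, the ratio of day 3 over day 0 of Nup43 was higher in flox than in control cells by 0.93 on the log2 scale. With tamoxifen, that of Pom121 differed by -0.44 (lower in flox cells) and that of Ddx39b by 0.57 (higher). Groups of 2 arrays were too small to look for single arrays far from the rest.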

How the results depend on the processing

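Alternatives listed at the start were no experiment term, median centring, Agilent's ratios, scale normalization between arrays, no or a strict filter on dim probes, day 0 RNA as a random block, the mean of all probes, the day 3 channel alone (for treatment and genotype) and leaving out each array. The 5′-most and the 3′-most probe were added after seeing the data. With the replicate number (experiment) left out as a block, 27, 25, 27 and 28 members were called at day 3, and 0 in each of the 5 comparisons of treatment or genotype. The total of members called at day 3 stayed within 1.5 times the reported one under every alternative other than leaving out an array. With median centring 30, 22, 20 and 29 members fell in the 4 groups and 1, 2, 2 and 3 rose, against 2, 2, 7 and 5 that rose as reported. With an array left out the totals ranged from 24 to 31, 19 to 34, 18 to 34 and 19 to 34 in the 4 groups. The lowest came without an array of the group itself: 19 without the experiment 1 array and 21 without the experiment 2 array of control cells with tamoxifen, 18 without either array of flox cells without tamoxifen, and 19 without the experiment 1 array of flox cells with it. A lone array was assumed to vary like the other groups. Counts under the alternatives, here and elsewhere, come without the share of all genes called in the same fit. They do not set the members apart from other genes.

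The tamoxifen count in flox cells was 3 with the random block, 5 on the day 3 channel, and 0 to 1 with an array left out. The difference of the tamoxifen effects gave 2 with the random block and 2 on the day 3 channel, and 0 to 0 with an array left out, and the effect in control cells gave 0 to 0. Without tamoxifen the genotype count was 0 with no experiment term, 2 with median centring, 0 with Agilent's ratios, 4 on the day 3 channel, and 0 to 0 with an array left out. With tamoxifen it was 0, 0, 0 and 5 under the same settings, 4 with scale normalization, 1 with the mean of all probes, 1 with the 5′-most probe, and 0 to 3 with an array left out.

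Of 2415 checks of single called members, 2152 kept direction and call, 243 kept direction only and 20 reversed. With the mean of all probes, Tpr was 0.01, 0.05 and 0.26 (control without and with tamoxifen, flox with), Seh1l 0.01 and 0.02 (control with, flox without), Nup54 0.03 (control with) and Ddx39b 0.02 and 0.16 (control with, flox without). With the 5′-most probe, Tpr was 0.48, 0.60, 0.26 and 1.00 in the 4 groups, Seh1l 0.26, 0.41 and 0.43 (all but control without), Nup54 0.40 and 0.23 and Gle1 0.02 and 0.05 (both groups with tamoxifen). With the 3′-most, Zc3h11a was 0.08 in control cells without tamoxifen. These probes lie elsewhere in the gene, and the cause was not tested. Dim signal limits Nup214 and the 5′ Tpr probe, which was called in no group.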
